A study of Mus musculus with 12 samples.

Results

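Mouse hearts were profiled by RNA sequencing, and 10 genes listed under anthracycline metabolism and efflux were followed across all 12 libraries. Whether each product acts on doxorubicin was not tested. The genes were taken by name: the carbonyl and aldehyde reductases Cbr1, Cbr3 and Akr1a1, the epoxide hydrolase Ephx1, the single-electron reductase Por, the oxidase Xdh, and the transporters Abcb1a, Abcb1b, Abcc1 and Abcc5. All 10 were among the 55453 gene symbols counted, and all 10 were among the 14757 genes with enough reads to test. Each of the 4 groups held 3 C57BL/6J mice: PDE10A knockout mice given doxorubicin (KO-labelled DOX), PDE10A knockout mice given vehicle (KO-labelled vehicle), wild-type mice given doxorubicin (WT DOX) and wild-type mice given vehicle (WT vehicle). Per the labels' protocols, doxorubicin was a single bolus of 15 mg/kg into the abdomen and was followed for 7 days. The protocols name male or female mice, and they describe a PDE10A inhibitor, TP-10, in DMSO and β-cyclodextrin, with which no library is labelled. Neither the ages, the knockout allele nor the vehicle of each control mouse is stated in the labels.

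Doxorubicin is an anthracycline, a quinone drug used against cancer whose dose is limited by damage to the heart. Carbonyl reductases and aldo-keto reductases turn its side-chain ketone into an alcohol, doxorubicinol, which stays in heart muscle. Single-electron reductases such as cytochrome P450 reductase pass an electron to its quinone ring, which hands it on to oxygen and leaves superoxide. P-glycoprotein and the multidrug resistance proteins pump the drug or its conjugates out of cells at the cost of ATP, and they sit largely in vessel walls as well as in muscle cells.

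Libraries held between 23846398 and 32921876 counted reads, and levels are given as CPM, a gene's count scaled to a fixed library total after trimmed-mean (TMM) adjustment of that total. WT vehicle mouse 2 had the lowest share of reads from mitochondrially encoded genes, 19.5%, the other libraries holding 24.4% to 33.6%. WT vehicle mouse 2 stood furthest apart: the chi-square of its counts was 164 and 98.4 per gene against WT vehicle mice 1 and 3, and 161 to 241 per gene against the libraries of other groups. WT DOX mouse 21 also stood apart from WT DOX mice 22 and 24, at 73.9 and 76.1 per gene against those mice. Its values were lower against KO-labelled DOX mouse 20, at 18.2 per gene, and against most vehicle mice. Those were 24.8 and 32.1 per gene against WT vehicle mice 1 and 3, and 27.1 against KO-labelled vehicle mouse veh_3393. No pair of libraries agreed within sampling noise, with a lowest chi-square of 8.33 per gene between KO-labelled vehicle mice veh_3393 and veh_3395. Pde10a, the targeted gene, went against the genotype labels: it averaged 8.61 ± 0.43 CPM in KO-labelled DOX, 10.1 ± 1.54 CPM in KO-labelled vehicle, 2.18 ± 0.46 CPM in WT DOX and 2.08 ± 1.21 CPM in WT vehicle hearts (SD, n = 3 each). The labels do not say which part of the gene the knockout removes, so whole-gene counts do not check the deletion, and every direction between genotypes below rests on the labels. The titles number KO-labelled vehicle mice apart from all others (veh_3393 to veh_3395, against 1 to 24), without saying whether they were raised separately, and such a difference cannot be told apart from the groups. Cardiomyocyte markers (8 of 8 listed genes detected) summed to between 52717 and 82913 CPM, the labelled tissue being heart.

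The 10 genes lay on 5 chromosomes (GENCODE M21 on GRCm38, matched by symbol), and close relatives among them were neighbours. Cbr1 (chr16:93605853-93610505) and Cbr3 (chr16:93683215-93690990) were 72.7 kb apart on the plus strand. Abcb1a (chr5:8660077-8748575) and Abcb1b (chr5:8798147-8866315) were 49.6 kb apart, also on the plus strand. Ephx1 lay at chr1:180976210-181020904 on the minus strand, Por at chr5:135670033-135735326 on the plus strand, and Xdh at chr17:73883895-73950196 on the minus strand. Akr1a1 lay at chr4:116636510-116651680 on the minus strand, Abcc1 at chr16:14361558-14475737 on the plus strand and Abcc5 at chr16:20331303-20426394 on the minus strand. The values below count reads over each gene's exons.

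The promoters of the genes that passed the test in WT hearts are shown because members moved in opposite directions there. Each holds 250 bases before and 50 after the RefSeq start (GRCm38.p6), 5′ to 3′ on the gene's strand; RefSeq promoters of Abcc1 and Xdh were not used here. Capitals mark GGGCGG, the GC box, and CCAAT, the CCAAT box, each searched on both strands.
Ephx1, chr1:181017520-181017819 (- strand): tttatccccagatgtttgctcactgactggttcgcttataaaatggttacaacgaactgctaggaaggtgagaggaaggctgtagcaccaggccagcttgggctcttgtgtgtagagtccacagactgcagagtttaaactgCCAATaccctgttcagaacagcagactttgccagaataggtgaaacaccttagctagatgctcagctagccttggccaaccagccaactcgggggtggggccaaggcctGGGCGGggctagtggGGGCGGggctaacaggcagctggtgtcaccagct
Por, chr5:135688895-135689194 (+ strand): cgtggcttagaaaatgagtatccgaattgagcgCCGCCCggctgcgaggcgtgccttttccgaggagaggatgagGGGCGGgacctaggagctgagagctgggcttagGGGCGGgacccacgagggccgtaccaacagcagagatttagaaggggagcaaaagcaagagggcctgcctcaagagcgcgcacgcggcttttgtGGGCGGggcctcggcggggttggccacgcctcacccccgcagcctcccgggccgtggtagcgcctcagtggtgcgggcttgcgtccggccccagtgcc
Cbr1, chr16:93607587-93607886 (+ strand): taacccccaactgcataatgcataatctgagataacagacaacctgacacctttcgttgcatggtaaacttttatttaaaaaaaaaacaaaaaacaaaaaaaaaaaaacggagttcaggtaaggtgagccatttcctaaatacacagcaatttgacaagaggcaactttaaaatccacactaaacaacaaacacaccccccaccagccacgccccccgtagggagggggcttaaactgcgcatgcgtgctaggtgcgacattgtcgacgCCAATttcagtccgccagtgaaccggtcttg
Cbr3, chr16:93682969-93683268 (+ strand): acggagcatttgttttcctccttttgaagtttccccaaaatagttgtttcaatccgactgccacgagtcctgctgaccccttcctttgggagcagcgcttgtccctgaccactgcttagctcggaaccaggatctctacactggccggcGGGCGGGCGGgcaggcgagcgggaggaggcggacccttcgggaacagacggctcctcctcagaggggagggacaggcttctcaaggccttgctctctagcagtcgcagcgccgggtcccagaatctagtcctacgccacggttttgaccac
Of all 32851 RefSeq promoters of this length, 35.7% held a GC box and 37.4% a CCAAT box, and both motifs were chosen after the sequences were seen. GC boxes stood in the windows of Ephx1, Por and Cbr3, which include genes that rose and a gene that fell, and in that of Abcb1b. TGACNNNGC, the core of the antioxidant response element, was found in the window of 1 member, Abcb1a, starting 27 bases after the RefSeq start, and 12.4% of all promoters held it. The RefSeq starts of Ephx1, Por and Cbr1 lie well inside the GENCODE gene spans, and that window of Abcb1a (chr5:8566841-8567140) lies upstream of its GENCODE start. No member window with a sequence held TNGCGTG (the dioxin response element, in 5.07% of promoters), TGACGTCA (the cAMP response element, in 1.79%) or CACGTG (the E-box, in 7.15%).

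Levels per kilobase of exon spanned 60.2-fold between the highest and the lowest of the 10 genes, as means over the 12 libraries. Akr1a1, which encodes aldehyde reductase, was highest at 57.5 CPM per kb, with libraries between 50.01 and 69.9. Ephx1 followed at 27.6 CPM per kb, Xdh at 18.3, Por at 13.1 and Cbr1 at 8.63. The transporters were lower, with Abcc5 at 5.00, Abcb1a at 3.90, Abcc1 at 2.27 and Abcb1b at 0.956 CPM per kb. Cbr3 stood at 1.42 CPM per kb. In this order, the library range of Akr1a1 lay above that of Ephx1, and that of Cbr1 above that of Abcc5 (highest library 6.00 CPM per kb). Per kilobase, Abcb1a was above Abcc1 in all 12 libraries and without overlap within each of the 4 groups, although the ranges over all libraries overlapped. The other 6 pairs of neighbours overlapped within at least 1 group, and the order was kept in 10 or 11 of the 12 libraries. Cbr1 was above Cbr3 in every library, with Cbr1 between 7.01 and 12.7 CPM per kb and Cbr3 between 0.783 and 2.37. The order depends on the exon length, which joins all annotated exons: 15.09 kb for Abcc1 and 5.48 kb for Abcb1a. In CPM, not divided by length, Abcc1 averaged above Abcb1a in each of the 4 groups. The means were 34.3 against 25.7 CPM in KO-labelled DOX and 25.7 against 16.2 CPM in WT vehicle hearts.

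**Figure D1:**
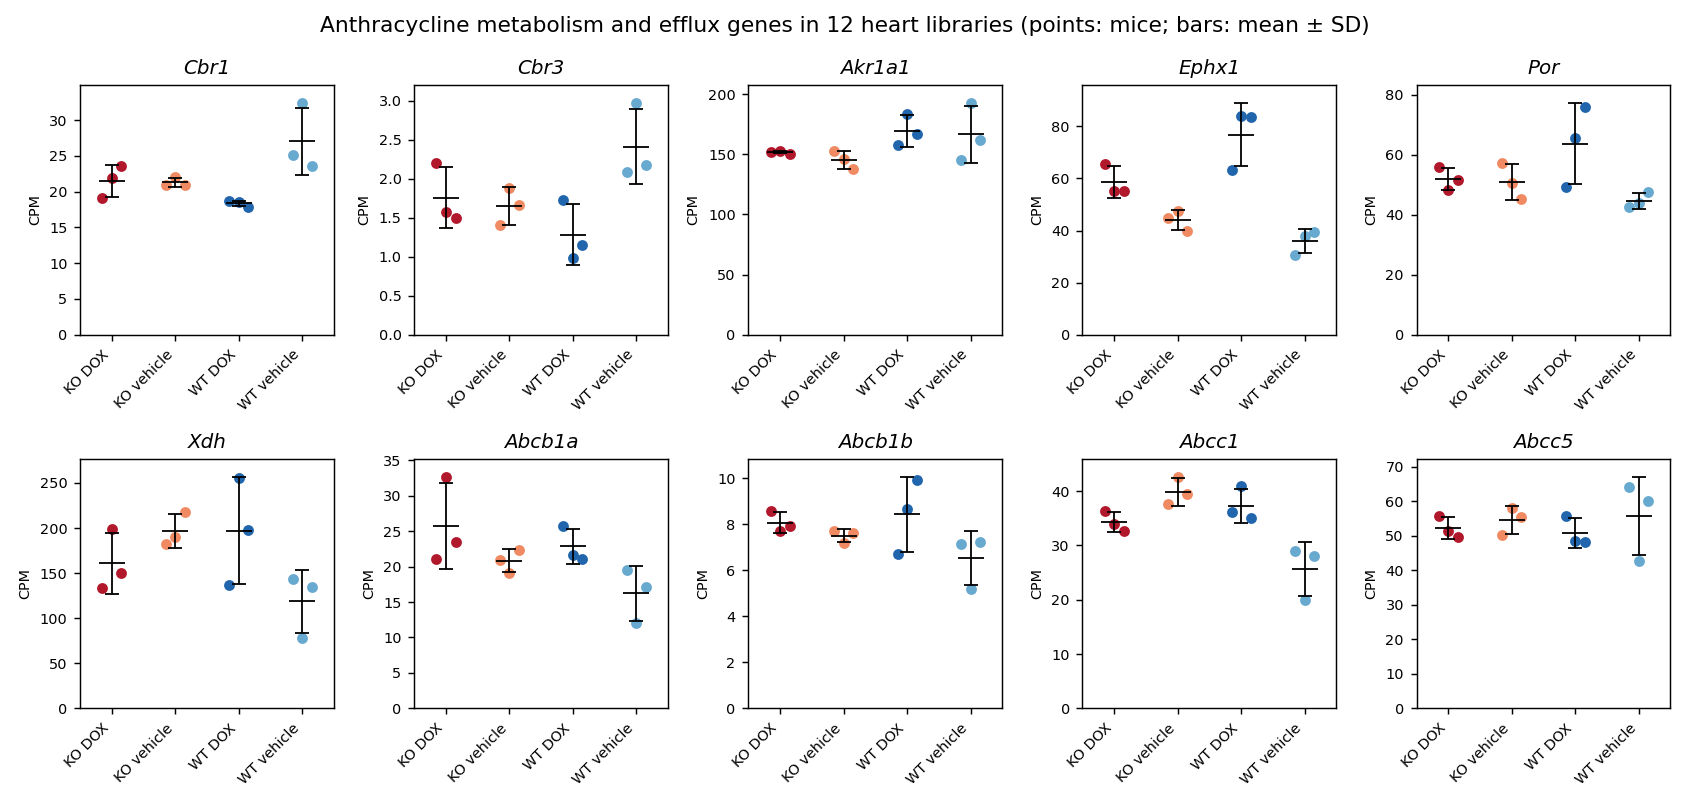
TMM-scaled CPM (vertical axes from 0) of the 10 genes in KO-labelled DOX, KO-labelled vehicle, WT DOX and WT vehicle hearts (named KO and WT on the axes); points are mice and bars are the mean ± SD of 3 mice. In Ephx1, WT DOX mice sit between 63.1 and 84.0 CPM, all above the WT vehicle mice, which reach 39.3 CPM.

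Doxorubicin in WT hearts was followed by a higher level of Ephx1, Abcc1 and Por and a lower level of Cbr1 and Cbr3. These 5 of the 10 genes passed the test (edgeR quasi-likelihood F test, Benjamini-Hochberg adjusted p under 0.05 over all 14757 genes), against 18.6% of all genes tested in the same comparison. The 3 that rose compare with 9.39% of all genes called higher and the 2 that fell with 9.2% called lower. The groups did not overlap for 6 of the 10, against 32.6% of all genes; 4 were higher and 2 lower, against 16.8% and 15.8% of all genes. At an unadjusted p under 0.05 the count was 8 of 10, against 36.1%. The median log2 fold change over the 10 genes was 0.43 and its median size 0.53, against 0 and 0.30 over all genes. DESeq2 called 6 of the 10, against 23.3% of all genes, and limma-voom 7, against 37.8%. A fit of the WT libraries alone called none of the 10 genes and 20 genes in all, with Ephx1 at an adjusted p of 0.0505. Without TMM scaling the genes called split 1845 higher to 941 lower, against 1386 to 1357 with it. The comparison shares its WT vehicle mice with the genotype comparison under vehicle, and its WT DOX mice with that under DOX.

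Ephx1, which encodes microsomal epoxide hydrolase, the enzyme that adds water to epoxides of drugs and dietary compounds, showed the largest change of the 10. It stood at 63.1, 84.0 and 83.5 CPM in WT DOX mice 21, 22 and 24, against 30.6, 37.9 and 39.3 CPM in WT vehicle mice 1, 2 and 3. The groups did not overlap, and the lowest WT DOX library, mouse 21, was still above every WT vehicle library. The log2 fold change was 1.10 ± 0.14 (SE), a fold of 2.14, with an adjusted p of 0.0053 in edgeR. That was rank 8 of all genes by p. In KO-labelled hearts Ephx1 stood at 65.5, 55.3 and 55.1 CPM in DOX mice 18, 19 and 20, against 44.7, 47.3 and 39.9 CPM in vehicle mice veh_3393, veh_3394 and veh_3395. The groups again did not overlap, but the log2 difference of 0.42 ± 0.14 did not pass the test (unadjusted p = 0.0097, edgeR adjusted p = 0.649). A pseudogene, Gm36961, covers 3.69% of the Ephx1 exon bases on the same strand and had no read in any library.

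Por encodes NADPH-cytochrome P450 reductase, the flavoprotein that feeds electrons to microsomal P450 enzymes and can reduce anthracycline quinones. It stood at 49.2, 65.7 and 75.9 CPM in WT DOX mice 21, 22 and 24, against 42.5, 43.8 and 47.5 CPM in WT vehicle mice 1, 2 and 3. All WT DOX libraries were above all WT vehicle libraries, although mouse 21 was above the highest of them by less than the spread among vehicle mice. Its log2 fold change was 0.51 ± 0.14 (SE; edgeR adjusted p = 0.0312). Leaving out WT DOX mouse 22, WT DOX mouse 24, WT vehicle mouse 2 or WT vehicle mouse 3 ended the call, with adjusted p up to 0.123. A covariate for the suffix 1 that some titles carry also ended it (edgeR adjusted p = 0.0635). So did leaving out the 2 libraries high in atrial transcripts, KO-labelled vehicle mouse veh_3394 and KO-labelled DOX mouse 18 (edgeR adjusted p = 0.0526). In KO-labelled hearts Por averaged 51.9 ± 3.79 CPM under DOX and 51.1 ± 6.00 CPM under vehicle (SD, n = 3 each), and the groups overlapped.

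Xdh encodes xanthine oxidoreductase, which makes uric acid and, in its oxidase form, superoxide, and which in mouse heart is known from endothelial cells. It stood at 137, 256 and 198 CPM in WT DOX mice 21, 22 and 24, against 143, 78.2 and 134.5 CPM in WT vehicle mice 1, 2 and 3. Mouse 21 lay among the vehicle mice, and WT vehicle mouse 2 was the lowest library. The log2 difference was 0.73 ± 0.25 (SE; edgeR adjusted p = 0.0585), which did not pass. It passed without WT DOX mouse 21 (0.94, adjusted p = 0.0169), without WT vehicle mouse 1 (0.89, adjusted p = 0.0363), without TMM scaling (0.80, adjusted p = 0.0352), with no filter on low counts (0.73, adjusted p = 7.15e-06), in DESeq2 (0.73, adjusted p = 0.0219) and in limma-voom (0.67, adjusted p = 0.0131). In KO-labelled hearts Xdh stood at 134, 199 and 150.5 CPM in DOX mice 18, 19 and 20, against 182, 189.5 and 218 CPM in vehicle mice veh_3393, veh_3394 and veh_3395, with overlap.

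Cbr1, which encodes carbonyl reductase 1, an enzyme that makes doxorubicinol from doxorubicin, moved the other way in WT hearts. It stood at 18.6, 18.5 and 17.9 CPM in WT DOX mice 21, 22 and 24, against 25.1, 32.3 and 23.6 CPM in WT vehicle mice 1, 2 and 3. Every WT DOX library was below every WT vehicle library, the DOX mice lay close together, and WT vehicle mouse 2 was the highest. This gave a log2 fold change of -0.56 ± 0.12 (SE; edgeR adjusted p = 0.0170). Without WT vehicle mouse 2 the call held; leaving out either of WT DOX mice 22 and 24 ended it, with an adjusted p of up to 0.0652. In KO-labelled hearts Cbr1 averaged 21.5 ± 2.28 CPM under DOX and 21.3 ± 0.60 CPM under vehicle (SD, n = 3 each), a log2 difference of 0.01 with a 95% interval from -0.25 to 0.28.

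Cbr3, its close relative with a narrower range of known substrates, was also lower in WT DOX hearts, from few reads. It stood at 1.72, 0.982 and 1.15 CPM in WT DOX mice 21, 22 and 24, against 2.09, 2.97 and 2.18 CPM in WT vehicle mice 1, 2 and 3. All WT DOX libraries were below all WT vehicle libraries, and WT vehicle mouse 2 was again the highest. The log2 fold change was -0.91 ± 0.26 (SE; edgeR adjusted p = 0.0351). The call was lost in 5 of the 12 fits that left out 1 library (WT DOX mouse 22 or 24, WT vehicle mouse 2 or 3, or KO-labelled vehicle mouse veh_3395), with an adjusted p of up to 0.131. The covariate for the title suffix also ended it (edgeR adjusted p = 0.0661). In KO-labelled hearts Cbr3 averaged 1.76 ± 0.39 CPM under DOX and 1.65 ± 0.24 CPM under vehicle (SD, n = 3 each).

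The coding sequences of Cbr1 and Cbr3 were 77.1% identical over 831 bases, and their longest shared run, coding bases 146 to 195 of each, is shown because reads inside it could come from either gene.
Cbr1 and Cbr3, chr16: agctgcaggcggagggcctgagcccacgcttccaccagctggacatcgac
Of the 50-base stretches of Cbr3 transcripts, 0.08% also occurred in another gene, and 1.85% of those of Cbr1, nearly all of these in the pseudogene Gm5678.

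Akr1a1 reduces a wide range of aldehydes, and in the mouse it is also known for making an ascorbate precursor. It averaged 169 ± 13.1 CPM in WT DOX and 166 ± 23.95 CPM in WT vehicle hearts (SD, n = 3 each), with overlap. The log2 difference was 0.02 with a 95% interval from -0.21 to 0.26. In KO-labelled hearts it averaged 152 ± 1.14 CPM under DOX and 145 ± 7.57 CPM under vehicle (SD, n = 3 each), and the interval of the log2 difference ran from -0.17 to 0.30. Per kilobase of exon it was the most abundant of the 10 genes, and it showed no detectable change with DOX in hearts of either genotype label.

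Abcc1, which encodes multidrug resistance protein 1, an exporter of glutathione conjugates and of anthracyclines, was the transporter that passed the test. It stood at 36.1, 40.9 and 35.0 CPM in WT DOX mice 21, 22 and 24, against 29.0, 20.1 and 28.1 CPM in WT vehicle mice 1, 2 and 3. All WT DOX libraries were above all WT vehicle libraries, and WT vehicle mouse 2 was the lowest. Abcc1 had a log2 fold change of 0.54 ± 0.13 (SE; edgeR adjusted p = 0.0208). This call too held without WT vehicle mouse 2 and ended when either of WT DOX mice 22 and 24 was left out, with an adjusted p of up to 0.0839. In KO-labelled hearts Abcc1 stood at 36.4, 34.0 and 32.6 CPM in DOX mice 18, 19 and 20, against 37.6, 42.6 and 39.4 CPM in vehicle mice veh_3393, veh_3394 and veh_3395. There every DOX library was below every vehicle library, and the log2 difference of -0.22 ± 0.13 (SE) did not pass the test (edgeR adjusted p = 0.997).

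Abcb1a and Abcb1b are the 2 mouse genes for P-glycoprotein, the drug pump that guards the blood-brain barrier and is known from vessel walls. Abcb1a stood at 25.6, 21.7 and 21.1 CPM in WT DOX mice 21, 22 and 24, against 19.6, 12.0 and 17.1 CPM in WT vehicle mice 1, 2 and 3. The groups did not overlap, and the log2 difference of 0.49 ± 0.19 (SE) did not pass the test (edgeR adjusted p = 0.0827). Abcb1b lay between 6.72 and 9.93 CPM in WT DOX and between 5.18 and 7.26 CPM in WT vehicle libraries, with a log2 difference of 0.37 ± 0.16 (SE; edgeR adjusted p = 0.119). Abcb1a passed without WT vehicle mouse 1 (adjusted p = 0.0328) and Abcb1b without WT DOX mouse 21 (adjusted p = 0.0319). In KO-labelled hearts Abcb1a averaged 25.7 ± 6.07 CPM under DOX and 20.8 ± 1.62 CPM under vehicle (SD, n = 3 each), and KO-labelled DOX mouse 19 was the highest library at 32.6 CPM. Abcb1b averaged 8.08 ± 0.45 CPM under DOX and 7.52 ± 0.27 CPM under vehicle there.

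No source used here states the handling of reads with several matches, so the split between Abcb1a and Abcb1b is uncertain. Their coding sequences were 88.0% identical over 3819 aligned bases and shared an unbroken run of 338 bases, of which the first 100, from coding base 1357 of Abcb1a and 1366 of Abcb1b, are shown because reads there cannot be assigned to either gene.
Abcb1a and Abcb1b, chr5: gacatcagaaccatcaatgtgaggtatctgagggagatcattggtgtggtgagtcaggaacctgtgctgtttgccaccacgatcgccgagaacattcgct
Of the 50-base stretches of Abcb1a transcripts, 16.3% also occurred in Abcb1b. Abcb1a took between 68.0% and 80.9% of the reads of the pair. Counted together, the pair stood at 32.4, 30.3 and 31.1 CPM in WT DOX mice 21, 22 and 24, against 26.7, 17.2 and 24.4 CPM in WT vehicle mice 1, 2 and 3. The groups did not overlap, and the log2 difference of 0.46 ± 0.15 (SE) had an edgeR adjusted p of 0.0565. An antisense model, Gm42686, covers 10.1% of the Abcb1a exon bases; it held at most 1 read in a library.

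Abcc5 encodes multidrug resistance protein 5, an exporter of cyclic nucleotides and nucleotide analogues that is known from heart muscle. It averaged 50.8 ± 4.27 CPM in WT DOX and 55.7 ± 11.3 CPM in WT vehicle hearts (SD, n = 3 each), with overlap and an interval of the log2 difference from -0.43 to 0.16. In KO-labelled hearts it averaged 52.4 ± 3.18 CPM under DOX and 54.6 ± 4.05 CPM under vehicle (SD, n = 3 each). Neither difference passed edgeR's test, while limma-voom called Abcc5 lower in WT DOX hearts (-0.26, adjusted p = 0.0461).

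In KO-labelled hearts edgeR called none of the 10 genes under DOX, where 0.0136% of all genes were called. At an unadjusted p under 0.05 the count was 1 of 10, Ephx1, against 5.35% of all genes, and DESeq2 and limma-voom also called 0, against 0.447% and 0.596% of all genes. The groups did not overlap for Ephx1 and Abcb1b, both higher under DOX, and for Abcc1, lower under DOX. Of all genes 16.3% did not overlap, 8.27% being higher and 8.05% lower. The median size of the log2 difference was 0.10 over the 10 genes and 0.12 over all genes.

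**Figure D2:**
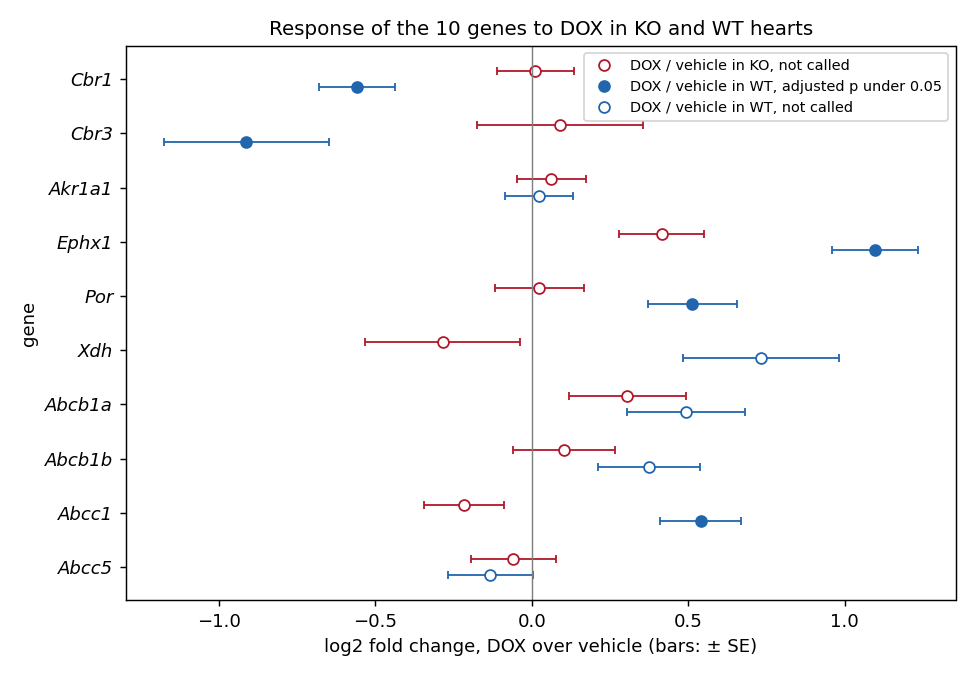
Log2 fold change of DOX over vehicle (horizontal axis) for each of the 10 genes in KO-labelled (red) and WT hearts (blue); bars are ± 1 SE, and filled points passed an adjusted p of 0.05. The 5 filled points are all from WT hearts, with Ephx1 farthest right at 1.10 and Cbr3 farthest left at -0.91.

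Whether the response to DOX differed between genotypes was tested directly, as the DOX effect in KO-labelled less that in WT hearts. EdgeR called none of the 10 genes, where 0.21% of all genes were called. At an unadjusted p under 0.05 the count was 6 of 10, against 16% of all genes. DESeq2 called 2 (Abcc1 and Ephx1), against 2.48% of all genes, and limma-voom 4 (those, Cbr1 and Xdh), against 13.9%. Abcc1 had a log2 difference of -0.76 ± 0.18 (SE; edgeR adjusted p = 0.118), Ephx1 of -0.68 ± 0.19 (adjusted p = 0.162) and Xdh of -1.02 ± 0.35 (adjusted p = 0.231). For Por the log2 difference was -0.49 ± 0.20 (edgeR adjusted p = 0.279). Cbr1 and Cbr3 had positive differences, of 0.57 ± 0.17 (edgeR adjusted p = 0.188) and 1.00 ± 0.37 (adjusted p = 0.253). Without WT DOX mouse 21, Ephx1 (-0.81, adjusted p = 0.0303) and Por (-0.65, adjusted p = 0.0478) passed the test. For Abcc1 the DOX and vehicle groups did not overlap under either genotype label and differed in opposite directions, a pattern that 1.27% of all genes showed.

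Between genotype labels under vehicle, Abcc1 was higher in KO-labelled hearts, at 39.9 ± 2.53 CPM against 25.7 ± 4.91 CPM in WT hearts (SD, n = 3 each). The log2 fold change was 0.63 ± 0.13 (SE; edgeR adjusted p = 0.0302), and no libraries overlapped. It was the only member called by edgeR here, where 2.88% of all genes were called and 1.79% called higher. Leaving out any 1 of the KO-labelled vehicle mice, KO-labelled DOX mouse 20 or WT vehicle mouse 3 ended the call, with an adjusted p of up to 0.113. So did leaving out the 2 libraries high in atrial transcripts, KO-labelled vehicle mouse veh_3394 and KO-labelled DOX mouse 18 (edgeR adjusted p = 0.134). Xdh stood at 196 ± 18.8 CPM in KO-labelled vehicle and 119 ± 35.3 CPM in WT vehicle hearts (SD, n = 3 each), without overlap and with an edgeR adjusted p of 0.0992. Cbr1 and Cbr3 were lower in every KO-labelled vehicle library than in any WT vehicle library, with log2 differences of -0.34 ± 0.12 (edgeR adjusted p = 0.108) and -0.55 ± 0.26 (adjusted p = 0.205). Ephx1 was higher in every KO-labelled vehicle library, by 0.29 ± 0.14 (edgeR adjusted p = 0.2005). In all, 5 of the 10 genes did not overlap between the groups, against 31.3% of all genes; 3 were higher and 2 lower, against 16.5% and 14.8% of all genes. At an unadjusted p under 0.05 the count was 3 of 10, against 26%. Xdh passed without WT vehicle mouse 1 (0.89, adjusted p = 0.04998), with no filter on low counts (0.72, adjusted p = 1.97e-05), in DESeq2 (0.72, adjusted p = 0.0398) and in limma-voom (0.58, adjusted p = 0.0087). DESeq2 and limma-voom each called 2 of the 10 genes there, Abcc1 and Xdh, against 11.1% and 35.1% of all genes.

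Between genotype labels under DOX, edgeR called none of the 10 genes, where 0.42% of all genes were called. At an unadjusted p under 0.05 the count was 1 of 10, Ephx1, against 15.5% of all genes; DESeq2 called 0, against 3.21% of all genes, and limma-voom 1, also Ephx1, against 6.71%. Ephx1 averaged 58.6 ± 5.98 CPM in KO-labelled DOX and 76.9 ± 11.9 CPM in WT DOX hearts (SD, n = 3 each), a log2 difference of -0.39 ± 0.14 (SE; edgeR adjusted p = 0.202). The overlap came from WT DOX mouse 21, at 63.1 CPM, which lay below KO-labelled DOX mouse 18, at 65.5 CPM. Without mouse 21, Ephx1 (-0.51, adjusted p = 0.0392) and Por (-0.45, adjusted p = 0.0494) passed the test. Cbr1 was higher in all KO-labelled DOX than in all WT DOX libraries and Akr1a1 lower in all. Of all genes 19.6% did not overlap, 9.86% being higher and 9.75% lower.

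**Figure D3:**
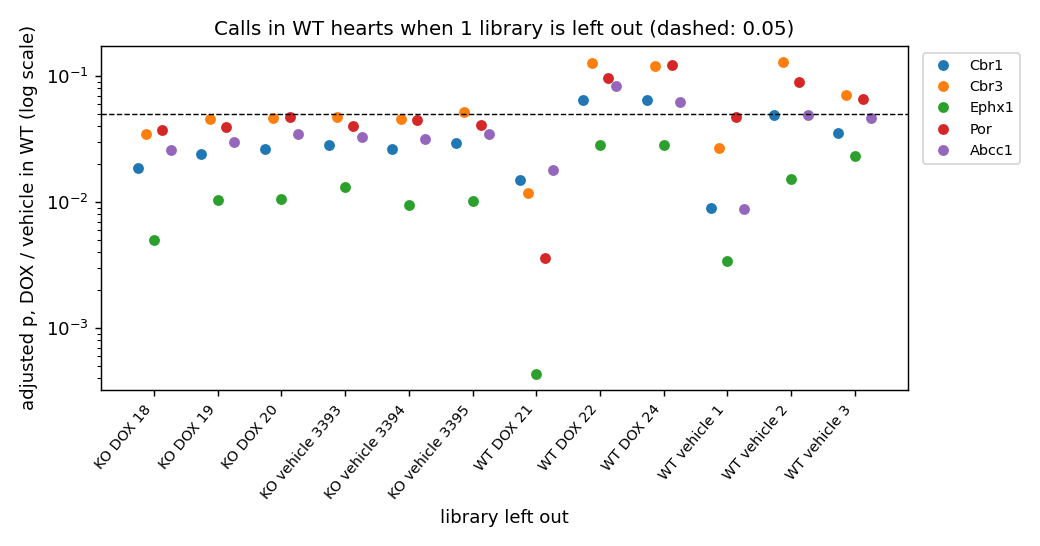
EdgeR adjusted p (vertical axis, log scale; dashed line at 0.05) of DOX against vehicle in WT hearts for the 5 genes called there, in fits that leave out the library named on the horizontal axis (KO stands for KO-labelled). Ephx1 lies below the line in all 12 fits, at 0.0284 or less, and the 4 other genes lie above it without WT DOX mouse 22 or 24.

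Some lists of cell type markers moved with the same groups and others did not, and their part in the results was not tested. Endothelial markers (11 of 11 listed genes detected, none at 0) summed to between 1003 and 1204 CPM in KO-labelled DOX, 974 and 1085 in KO-labelled vehicle, 1008 and 1141 in WT DOX, and 1257 and 1500 in WT vehicle libraries. With DOX in WT hearts 6 of the 11 were called lower, against 9.2% of all genes. Another, not called, was higher in every WT DOX than in any WT vehicle library, as were 16.8% of all genes. A second list of 5 capillary endothelial markers summed to 2244, 3608 and 2408 CPM in WT DOX mice 21, 22 and 24, against 2487, 1922 and 2207 CPM in WT vehicle mice 1, 2 and 3. These sums overlapped, with WT DOX mouse 22 the highest and WT vehicle mouse 2 the lowest, as they were for Xdh. Gene by gene, the 5 markers leaned lower with DOX in WT hearts, with a median log2 fold change of -0.24. Of the 5, 1 was called lower and 0 higher, against 9.2% and 9.39% of all genes. Neutrophil markers (4 of 4 detected) summed to between 2.36 and 3.66 CPM in KO-labelled DOX, 4.61 and 8.05 in KO-labelled vehicle, 6.43 and 32.5 in WT DOX, and 1.20 and 2.18 in WT vehicle libraries. Cardiomyocyte markers summed to between 52717 and 67428 CPM in WT DOX and 70706 and 82913 CPM in WT vehicle libraries. Fibroblast markers summed to between 792 and 988 CPM in WT DOX and 807 and 1121 CPM in WT vehicle libraries. Macrophage markers summed to between 178 and 200 CPM in WT DOX and 133 and 263 CPM in WT vehicle libraries. The adipocyte, smooth muscle and pericyte, and atrial and mesothelial sums also overlapped between these groups. Erythroid markers (5 listed) summed to at most 0.395 CPM in WT DOX libraries, with Hba-a2 and Hbb-bt at 0, and to at least 50.8 CPM in WT vehicle libraries. Their sums were 0.709, 213 and 60.7 CPM in KO-labelled DOX mice 18, 19 and 20. In KO-labelled vehicle libraries they lay between 46.5 and 253 CPM. In bulk tissue, fewer cells of a type and less RNA per cell cannot be told apart.

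Of 55 other genes of anthracycline handling, 42 had enough reads to test, and 14 of these passed in WT hearts under DOX, 8 higher and 6 lower. That is 33.3% of those tested, against the 18.6% of all genes. Their median log2 difference was -0.09, against 0 over all genes. Among 13 further carbonyl and aldo-keto reductases tested, 5 fell and 1 rose, against 9.2% of all genes called lower and 9.39% called higher. Akr7a5, an aflatoxin aldehyde reductase, fell by 0.92 on the log2 scale (SE 0.18, edgeR adjusted p = 0.0138) and averaged 25.7 CPM in WT DOX and 48.5 CPM in WT vehicle hearts. Akr1c14, a hydroxysteroid dehydrogenase, fell by 1.20 (SE 0.29, adjusted p = 0.0215), the aldose reductase gene Akr1b3 by 0.50 (SE 0.12, adjusted p = 0.0198), Cbr4 by 0.45 (SE 0.13, adjusted p = 0.0366) and Akr1b10 by 0.44 (SE 0.10, adjusted p = 0.0192). Hsd11b1, which regenerates active glucocorticoid and can reduce other carbonyls, rose: it stood at 19.9, 53.0 and 37.4 CPM in WT DOX mice 21, 22 and 24, against 15.7, 16.0 and 17.96 CPM in WT vehicle mice 1, 2 and 3. Its log2 fold change was 1.15 ± 0.27 (SE; edgeR adjusted p = 0.0192). All 6 calls ended when WT DOX mouse 22 was left out, and again when mouse 24 was. Of the 12 fits that left out 1 library, 8 lost Cbr4, some of them leaving out a KO-labelled library. Each of the other calls was lost in 2 to 4 fits. The call of Cbr4 also ended without TMM scaling (edgeR adjusted p = 0.0609).

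Among 12 quinone and electron-transfer enzymes tested, 3 rose and 1 fell in WT hearts, against 9.39% of all genes called higher and 9.2% called lower. The median size of their log2 differences was 0.27, against 0.30 over all genes. Nqo1, the quinone reductase that takes quinones straight to hydroquinones, stood at 53.5, 92.5 and 158 CPM in WT DOX mice 21, 22 and 24, against 54.5, 38.9 and 55.9 CPM in WT vehicle mice 1, 2 and 3. Mouse 21 lay among the vehicle mice, and the log2 fold change was 1.03 ± 0.32 (SE; edgeR adjusted p = 0.0421). Aldehyde oxidase Aox1 also had mouse 21 among the vehicle mice, at 34.9, 116 and 94.3 CPM in WT DOX mice 21, 22 and 24, against 44.1, 28.1 and 35.0 CPM in WT vehicle mice 1, 2 and 3 (log2 fold change 1.20 ± 0.34, adjusted p = 0.0333). The thioredoxin reductases split, the cytosolic Txnrd1 rising by 0.65 ± 0.20 on the log2 scale (adjusted p = 0.0428) and the mitochondrial Txnrd2 falling by 0.36 on the log2 scale (SE 0.12, adjusted p = 0.0488). These 4 calls ended without WT DOX mouse 22, and also without mouse 24, with adjusted p of up to 0.191; of the 12 fits that left out 1 library, 4 lost Aox1, 8 lost Nqo1, 11 lost Txnrd1 and 10 lost Txnrd2. Without WT DOX mouse 24 the log2 fold change of Nqo1 was 0.55 and that of Txnrd1 0.30, and without WT vehicle mouse 2 that of Txnrd2 was -0.23. Ephx2, the soluble epoxide hydrolase, averaged 452 CPM in WT DOX and 378 CPM in WT vehicle hearts and was not called (edgeR adjusted p = 0.510).

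Of 7 further efflux transporters tested, 2 rose and none fell in WT hearts, against 9.39% of all genes called higher and 9.2% called lower. Abcg2, the breast cancer resistance protein, stood at 31.4, 35.8 and 37.0 CPM in WT DOX mice 21, 22 and 24, against 25.7, 20.4 and 26.3 CPM in WT vehicle mice 1, 2 and 3. The groups did not overlap, and the log2 fold change was 0.53 ± 0.11 (SE; edgeR adjusted p = 0.0165). Abcb4, a phospholipid exporter of the P-glycoprotein family 145.1 kb from Abcb1a, rose by 0.39 ± 0.10 on the log2 scale (adjusted p = 0.0215). The call for Abcg2 was lost without WT DOX mouse 22 or 24, with an adjusted p of up to 0.0656. That for Abcb4 was lost without WT DOX mouse 24, WT vehicle mouse 2 or WT vehicle mouse 3, with an adjusted p of up to 0.0852. Abcb8, a mitochondrial transporter linked to iron export in the heart, was at -0.09 ± 0.09 and was not called (adjusted p = 0.486). Slc22a3, an uptake transporter, was not called (-0.23 ± 0.21, adjusted p = 0.448).

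Of 5 regulators tested, 2 rose in WT hearts, against 9.39% of all genes. Nfe2l2, which encodes NRF2, the transcription factor that drives antioxidant and drug-handling genes, stood at 93.6, 138 and 105 CPM in WT DOX mice 21, 22 and 24, against 73.4, 65.7 and 78.0 CPM in WT vehicle mice 1, 2 and 3. Nfe2l2 rose by 0.63 ± 0.13 on the log2 scale (SE; edgeR adjusted p = 0.0159), and the groups did not overlap. Arnt, the partner of the aryl hydrocarbon receptor and of hypoxia-inducible factors, rose by 0.52 ± 0.14 on the log2 scale (adjusted p = 0.0264). Each call ended when WT DOX mouse 22, WT DOX mouse 24 or WT vehicle mouse 2 was left out, with adjusted p of up to 0.0584 for Nfe2l2 and 0.0989 for Arnt. That of Arnt also ended without WT vehicle mouse 3 (edgeR adjusted p = 0.0641).

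In KO-labelled hearts edgeR, DESeq2 and limma-voom called none of the 42 genes under DOX, against 0.0136%, 0.447% and 0.596% of all genes. None of the 42 had an unadjusted p under 0.05, against 5.35% of all genes. Under DOX between genotype labels, Nfe2l2 was lower in KO-labelled hearts, at 67.9 ± 2.32 CPM against 112 ± 23.0 CPM in WT hearts (SD, n = 3 each). The log2 fold change was -0.73 ± 0.13 (SE; edgeR adjusted p = 0.0385), and 10 of the 12 fits that left out 1 library lost the call, with an adjusted p of up to 0.166. Under vehicle, Abcg2 was higher in KO-labelled hearts, at 34.6 ± 1.59 CPM against 24.1 ± 3.22 CPM in WT hearts (SD, n = 3 each; log2 fold change 0.52 ± 0.11, adjusted p = 0.0361). That call was lost in 6 of the 12 fits, including all that left out a KO-labelled vehicle mouse. It was also lost without the 2 libraries high in atrial transcripts (edgeR adjusted p = 0.149). For the difference in DOX response edgeR called none of the 42, with 11 at an unadjusted p under 0.05, against 16% of all genes. DESeq2 called 2 of the 42, against 2.48% of all genes, and limma-voom 8, against 13.9%.

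**Figure D4:**
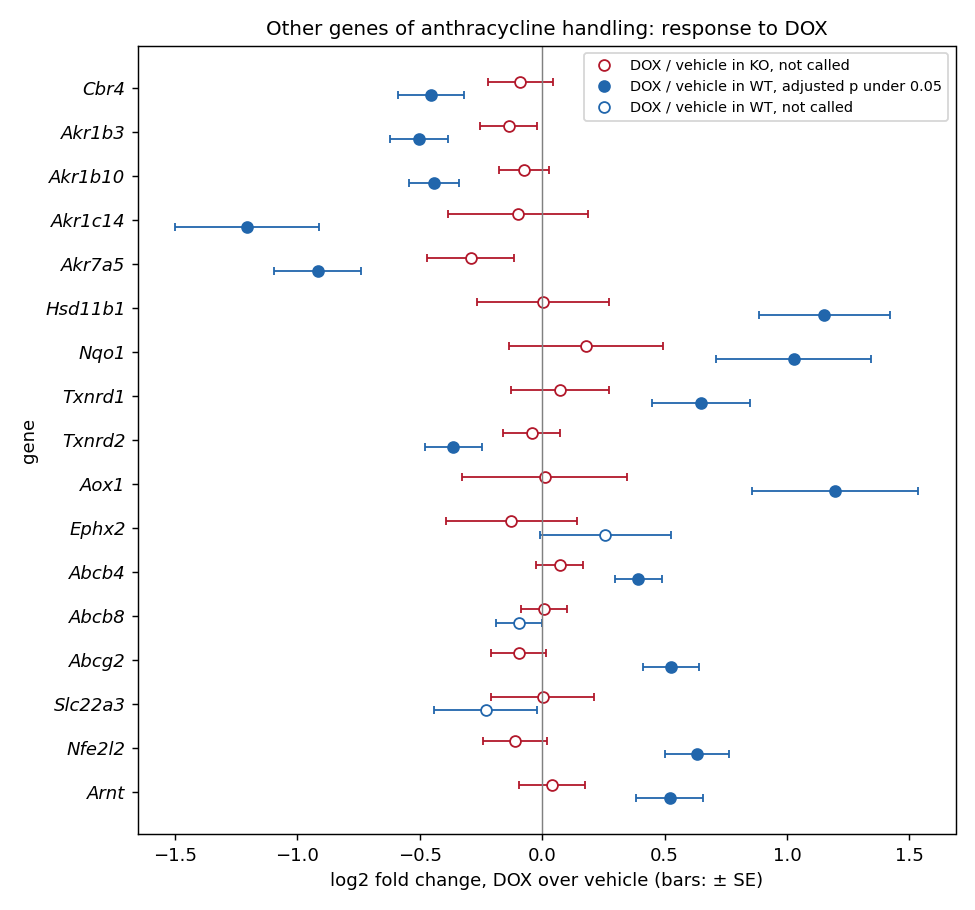
Log2 fold change of DOX over vehicle (horizontal axis) in KO-labelled (red) and WT hearts (blue) for the other genes of anthracycline handling that were called in a comparison, plus Ephx2, Abcb8 and Slc22a3, shown whatever their p; bars are ± 1 SE, and filled points passed an adjusted p of 0.05. The blue points run from Akr1c14 at -1.20 to Aox1 at 1.20.

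The genes whose levels followed those of Ephx1 most closely over the 12 libraries, among 11113 searched, were Azin1 (Pearson's r of log2 CPM 0.949), Lrrc41 (0.942) and Ctps (0.924). Azin1 encodes an activator of polyamine synthesis and Ctps makes cytidine triphosphate. Cbr1 was followed most closely by Pebp1 (0.954), the DNA repair gene Mgmt (0.953) and the complex I gene Ndufs5 (0.946), and Abcc1 by Casp8ap2 (0.965), Aff1 (0.955) and Fam168a (0.950). These values describe 12 libraries that share group, depth and scaling, and they were chosen as the highest of many. Of these 9 genes, picked for following a called gene, the 3 beside Ephx1 were called higher in WT DOX hearts and the 3 beside Cbr1 lower; beside Abcc1, Aff1 and Fam168a were called higher and Casp8ap2 was not called (edgeR adjusted p = 0.0513).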

How the data were processed

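RNA from 12 mouse hearts was sequenced from stranded, poly(A)-selected libraries, per the labels' protocols. The authors deposited whole-number read counts per gene symbol, 1 file per library with no header. The submitters' processing notes name featureCounts and Subread 1.6.4, the trimmer fastp 0.20.0 and the aligner STAR 2.7.0f. No source used here gives the build, annotation, strand setting or treatment of reads with several matches. Library totals ran from 23846398 to 32921876 counts.

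Genes were filtered with filterByExpr by group (14757 kept), scaled with TMM factors and fitted with 1 mean per group over all 12 libraries in edgeR 4.0.16 (R 4.3.3). The quasi-likelihood F test was used for 5 comparisons with Benjamini-Hochberg adjustment over all genes and a threshold of 0.05. Each standard error is the size of the log2 fold change over the root of F, and the biological coefficient of variation was 17.5%. Each library is 1 numbered mouse. The script was tested on simulated data.

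The members and lists were chosen with earlier results of these data known, and 1 listed gene is not reported here. Text names the 10 genes, any listed pathway gene called in a comparison, Nqo1, Abcb8, Abcg2, Ephx2, Slc22a3 and Nfe2l2, Pde10a, and the 3 genes most correlated with each of the 3 members of smallest adjusted p. Alternatives were DESeq2 1.42.0 or its size factors, no scaling, other filters, limma-voom (limma 3.58.1) with quality weights, fits of only 2 groups, a covariate for the suffix 1 that some titles carry, and leaving out the 2 libraries high in atrial transcripts or each library in turn. The libraries high in atrial transcripts were KO-labelled vehicle mouse veh_3394 and KO-labelled DOX mouse 18. Their 6 atrial and mesothelial markers summed to 1275 and 1107 CPM, against at most 53.2 CPM in any other library. The suffix stood in the titles of all KO-labelled DOX mice, KO-labelled vehicle mice veh_3394 and veh_3395, WT DOX mice 22 and 24 and WT vehicle mouse 1. Counting Abcb1a and Abcb1b as 1 gene was added after seeing the data. Positions and lengths come from GENCODE M21 (98.3% of symbols found) and promoters from RefSeq (GRCm38.p6).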

Additional observations from a re-analysis of the deposited data

Results flagged for a closer look

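The Abcc1 values differed between DOX and vehicle in opposite directions in the 2 genotype labels. Every KO-labelled DOX library lay below every KO-labelled vehicle library, and every WT DOX library lay above every WT vehicle library. The DOX effect in KO-labelled hearts less that in WT hearts was -0.76 on the log2 scale, and edgeR's test of that difference gave an adjusted p of 0.118. Of all 14757 genes tested, 188, or 1.27%, showed such opposite directions without overlap.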

How the results depend on the processing

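No paired analysis was possible because the groups share no replicate numbers. Of the calls among the 10 genes, Ephx1 with DOX in WT hearts was kept in all 12 fits that left out 1 library and in 8 of the 9 other settings.

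With DOX in WT hearts, limma-voom called 5575 genes, the fit of the 2 groups 20 (0 members, 0 other pathway genes) and the title suffix covariate 1595 (3 members, 9 pathway genes). The suffix covariate ended the calls of Cbr3, Por, Aox1, Cbr4, Nqo1, Txnrd1 and Txnrd2. Leaving out the libraries high in atrial transcripts ended those of Por, Cbr4, Nqo1, Txnrd1 and Txnrd2. Fitting without TMM scaling ended those of Cbr4 and Txnrd2, and using no filter on low counts ended that of Txnrd2. Leaving out each library gave 183 to 4188 genes, 1 to 7 members and 0 to 16 pathway genes. With DOX in KO-labelled hearts, where 2 genes were called, no scaling, the fit of the 2 groups and the title suffix gave 0, the fit without the 2 libraries high in atrial transcripts 1, no filter 309, DESeq2 66 and limma-voom 88; leaving out each library gave 0 to 4. No setting called a member there. Fits with no filter tested 29571 genes and 55 pathway genes, against 14757 and 42 with the filter.

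Under vehicle, KO-labelled against WT (425 genes), no filter called 2088 (2 members, 4 pathway genes), DESeq2 1639 (2 and 3), limma-voom 5186 (2 and 8), the fit of the 2 groups 222 (0 and 0), the title suffix 211 (0 pathway genes) and the fit without the atrial-high libraries 68 (0 and 0). Leaving out each library gave 42 to 2670 genes, 0 to 2 members and 0 to 3 pathway genes. The pathway counts of DESeq2 and limma-voom are out of 42 tested. Of all genes, they called 11.1% and 35.1% under vehicle, and 3.21% and 6.71% under DOX. Under DOX (62 genes), no filter called 1152 (9 pathway genes), DESeq2 473 (4), limma-voom 990 (1 member, 7 pathway genes), the fit of the 2 groups 5 (0) and the fit without the atrial-high libraries 24 (0); leaving out each library gave 8 to 727 genes, 0 to 2 members and 0 to 7 pathway genes.

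For the difference in DOX response (31 genes), no scaling called 51, no filter 1093 (3 members, 8 pathway genes), DESeq2 366 (2 and 2), limma-voom 2048 (4 and 8) and the fit without the atrial-high libraries 2; leaving out each library gave 0 to 515 genes, 0 to 2 members and 0 to 5 pathway genes. The fit of 2 groups was not run for it.

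Reversed signs were limited to members that were not called. Leaving out each library, the log2 difference of Akr1a1 with DOX in WT hearts ran from -0.0655 to 0.1405, and with DOX in KO-labelled hearts that of Cbr1 ran from -0.0613 to 0.0916, of Cbr3 from -0.1024 to 0.1974 and of Por from -0.054 to 0.115. Cbr3 there was -0.0071 in limma-voom and Por -0.037 without the atrial-high libraries. Between genotype labels, Abcc5 ran from -0.188 to 0.0833 under vehicle and from -0.0057 to 0.1145 under DOX, with -0.0104 without the atrial-high libraries; under DOX Abcb1a ran from -0.0344 to 0.2975 and Abcb1b from -0.2039 to 0.0706. For the difference in response, Abcc5 ran from -0.0401 to 0.231 and Akr1a1 from -0.0777 to 0.1284, with -0.0325 in limma-voom. The cause of these changes was not tested. Another scaling moved the median of all genes by at most 0.046 on the log2 scale. Cbr3, at 0.982 to 2.97 CPM, rests on few reads.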
